A study of Mus musculus with 2 samples.

Results

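A set of 31 genes that mark the alveolar type 1 (AT1) cell was followed through every cell class of a mouse lung mutant for Nkx2-1, and through a control lung. The genes were taken by symbol from a list chosen by their levels in these libraries, high in control AT1 cells and graded over the mutant cells, and all 31 were found among the 27998 genes of the count tables. AT1 cells are the thin, very wide epithelial cells across which the lung exchanges gas. They share the alveolus with cuboidal alveolar type 2 (AT2) cells, which make surfactant. Nkx2-1 encodes a homeodomain protein that lung epithelial cells use as a transcription factor, and AT1 cells are known to be recognised by Ager, Hopx, Pdpn and other genes of the set.

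The series asks how Nkx2-1 controls AT1 cells as they form and are maintained. It holds 1 mutant and 1 control library of sorted lung cells from mice at postnatal day 10. The mutant is labelled Nkx2-1;Aqp5, and Aqp5 is itself an AT1 gene whose locus is known as a driver of Cre in these cells. Strain, sex, the deleted part of Nkx2-1 and the number of animals per library are not given in the labels used here, and the control is labelled by genotype only. Epithelial, immune, endothelial and mesenchymal cells were sorted and loaded on the 10x Chromium 3' platform, so a value is a number of unique molecular identifiers (UMIs) of 3' tags, which does not scale with transcript length. The mutant library had 4551 barcodes with a median of 8305 UMIs, and the control library had 4461 with a median of 5943. After filters and removal of doublets 4264 mutant and 4008 control cells were used, and 27 barcodes occurred in both libraries.

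Levels were compared between 4 classes of epithelial cells, which in the mutant are called alveolar only by exclusion of other types. Mutant alveolar epithelial cells, which lay in no AT2, airway or mixed cluster, were split by the share of their UMIs that came from Ager. Of 2243 such cells, 1695 had under 0.1% (Ager-low), 320 had 0.1 to 0.6% (Ager-intermediate) and 228 had at least 0.6% (Ager-high). Most Ager-low cells lay in clusters that took no cell type name. Control AT1 cells were the 563 control cells of AT1-like clusters. Median depths were 13093 UMIs in Ager-low, 10957.5 in Ager-intermediate, 9559.5 in Ager-high and 6428 in control AT1 cells. Levels are UMIs summed over the cells of a class per 1000000 UMIs of that class (CPM).

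Bins are ranges of a score and not cell types. Within 20% of the 0.6% boundary lay 28 mutant cells above and 55 below, with 11789 and 9436 CPM in sum for the other 30 genes. Around the 0.1% boundary lay 24 cells above and 26 below, with 4370 and 5385 CPM. Of 568 control alveolar cells, 555 were Ager-high, 9 intermediate and 4 low. Because the genes and the boundaries were chosen with these values known, what follows for the bins is a description, with no p-value. With 1 library per group there was also no replicate check. Intervals are exact at 95% and cover counting error only.

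The set was put beside 10 AT1 markers outside it, such as Aqp5, Igfbp2 and Cldn18. They summed to 1715 CPM in Ager-low, 4007 in Ager-intermediate, 8307 in Ager-high and 15758 in control AT1 cells. In any other cell class they summed to at most 1609 CPM. The same 10 markers named the AT1-like clusters, so their high level in control AT1 cells and low level elsewhere are no independent check. The sum of the 30 genes without Ager was 2601 CPM in Ager-low, 7575 in Ager-intermediate, 15093 in Ager-high and 22062 in control AT1 cells. Nkx2-1 itself had 3.37, 41.9 and 77.1 CPM in those mutant bins and 491 CPM in control AT1 cells. In AT2-like cells it had 313 CPM in the mutant and 347 CPM in the control. These are 3' tags and need not lie in the deleted part of the gene.

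Every one of the 30 genes was ordered in the same way among mutant cells, lowest in Ager-low, higher in Ager-intermediate and highest in Ager-high cells. The counting intervals of Ager-low and Ager-intermediate cells overlapped for F3, Fjx1 and Lims2, and those of Ager-intermediate and Ager-high cells for Fjx1. Against control AT1 cells the median of the 30 log2 ratios was -4.48 in Ager-low, -2.16 in Ager-intermediate and -1.01 in Ager-high cells. The median of all genes with at least 20 UMIs, the minimum for a ratio, was 0.18, 0.12 and 0.02 in the same order, and all 30 genes passed that minimum in each comparison. At least 2-fold lower were 29 of 30 genes in Ager-low cells, against 13.7% of all genes, and none was 2-fold higher, against 22.9% of all genes. In Ager-intermediate cells 23 of 30 were, against 9.95% of all genes, and again none was 2-fold higher, against 17.2% of all genes. In Ager-high cells 15 of 30 were, against 6.87% of all genes, while 7 of 30 stood above control AT1 cells, none by 2-fold, against 7.87% of all genes.

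**Figure D1:**
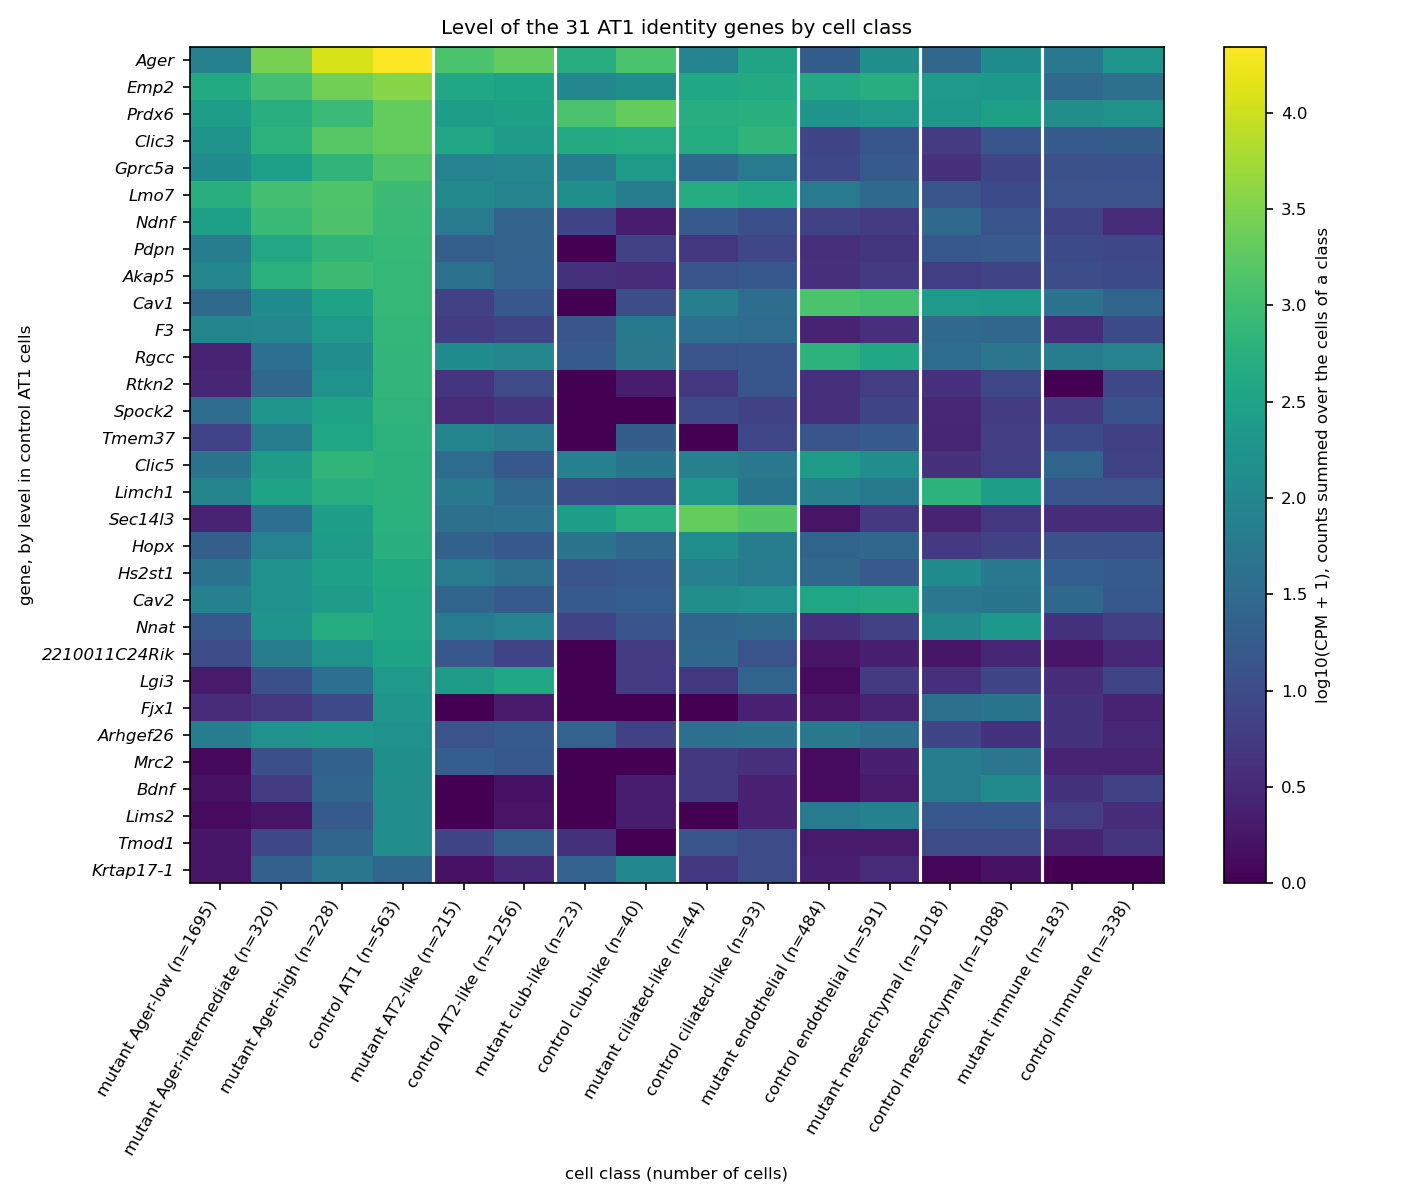
Level of each of the 31 genes (rows, by level in control AT1 cells) in 16 cell classes (columns, with the number of cells), as log10(CPM + 1) of summed counts, with brighter colour for higher levels. In the first block of 4 columns the levels increase from Ager-low to control AT1 cells for most genes, and bright cells outside that block mark genes that other lung cells also express, such as Cav1 in endothelial and Sec14l3 in ciliated-like cells.

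The surface and membrane genes kept the order of the set. Ager, the receptor for advanced glycation end products and the gene that defined the bins, had 77.6 CPM in Ager-low, 2868 in Ager-intermediate, 12079 in Ager-high and 21904 in control AT1 cells. Emp2, a small membrane protein of the tetraspan type, had 456, 1109 and 2604 CPM in the mutant bins and 3768 CPM in control AT1 cells. Its ratio in Ager-high cells was 0.691 (0.670 to 0.712). Pdpn, the mucin-like podoplanin of the apical AT1 membrane, had 67.1, 422 and 693 CPM in the mutant bins and 797 CPM in control AT1 cells, so that Ager-high cells were at 87.0% of the control level. Clic3 and Clic5 belong to a family of chloride intracellular channel proteins. Clic3 had 1617 CPM in Ager-high cells and 2041 CPM in control AT1 cells, a ratio of 0.793 (0.762 to 0.824), whereas Clic5 had 702 CPM there and 618 CPM in control AT1 cells, a ratio of 1.14 (1.07 to 1.21). The direction of Clic5 turned with lower Ager boundaries and without the cluster that both libraries shared (log2 -0.51), and in the mutant-only cluster described further on it had 258 CPM.

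Other surface genes stayed below control AT1 cells in every bin, and Gprc5a, Cav1, F3 and Mrc2 did so by at least 2-fold. Gprc5a, an orphan receptor induced by retinoic acid, had 128, 281 and 687 CPM in the mutant bins and 1393 CPM in control AT1 cells. Cav1, the main coat protein of caveolae, had 30.5, 130 and 333 CPM in the bins and 787 CPM in control AT1 cells. Its partner Cav2 was less far below, with 77.6, 155 and 251 CPM in the bins and 390 CPM in control AT1 cells. F3, the tissue factor that starts coagulation, hardly differed between Ager-low (96.8 CPM) and Ager-intermediate cells (101 CPM), and had 211 CPM in Ager-high and 743 CPM in control AT1 cells. Tmem37, a membrane protein related to calcium channel subunits, had 6.53, 65.9 and 369 CPM in the bins and 640 CPM in control AT1 cells. Mrc2, an endocytic receptor for collagen, had the smallest ratio of the set in Ager-low cells, with 7 UMIs (0.28 CPM) there against 546 UMIs (143 CPM) in control AT1 cells, 509-fold lower (245 to 1272). Of the 10 surface genes besides Ager, 10 were at least 2-fold lower in Ager-low, 9 in Ager-intermediate and 4 in Ager-high cells. The shares of all genes were 13.7%, 9.95% and 6.87%.

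Genes of the cytoskeleton and of adhesion split into a pair of patterns. Lmo7, an actin-associated LIM-domain protein of cell junctions, had 571, 1110 and 1386 CPM in the mutant bins and 959 CPM in control AT1 cells. It was the only gene of the 30 that was not 2-fold lower in Ager-low cells, with a ratio of 0.595 (0.574 to 0.617). Akap5, which anchors protein kinase A, had 101, 600 and 949 CPM in the bins and 787 CPM in control AT1 cells. Arhgef26 had 67.3, 156 and 193 CPM and 172 CPM in control AT1 cells. Limch1, an activator of non-muscle myosin, had 94.5, 328 and 550 CPM in the bins and 609 CPM in control AT1 cells. In Ager-high cells the ratios of these 4 genes were 1.45 (1.38 to 1.52) for Lmo7, 1.21 (1.14 to 1.27) for Akap5, 1.12 (0.995 to 1.27) for Arhgef26 and 0.903 (0.843 to 0.967) for Limch1. The direction of Arhgef26 turned when cells were thinned to equal depth (log2 -0.16).

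Rtkn2, Tmod1 and Lims2 were far below control AT1 cells in every bin. Rtkn2 had 1.92, 27.0 and 166 CPM in the bins and 708 CPM in control AT1 cells. In Ager-low cells it was 368-fold lower (277 to 501). Tmod1, which caps the pointed end of actin filaments, had 0.80, 7.59 and 24.5 CPM in the bins and 131 CPM in control AT1 cells. Lims2, an adaptor of focal adhesions, had 9, 3 and 37 UMIs in the bins (0.36, 0.79 and 15.9 CPM) and 512 UMIs (134 CPM) in control AT1 cells. Krtap17-1, a keratin-associated protein, had few UMIs in every class, with 0.76, 20.1 and 50.4 CPM in the bins and 28.0 CPM in control AT1 cells, a ratio of 1.80 (1.37 to 2.36) in Ager-high cells. That ratio turned to a log2 value of -3.17 without the epithelial cluster that both libraries shared. The gene was seen in 10.1% of Ager-high and 6.75% of control AT1 cells, and after thinning to 1500 UMIs in 3.07% and 2.66%. Of the 8 cytoskeletal and adhesion genes 7 were at least 2-fold lower in Ager-low, 3 in Ager-intermediate and 3 in Ager-high cells. Among all genes 13.7%, 9.95% and 6.87% were. The median log2 ratio of the 8 genes in Ager-high cells was 0.01.

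Secreted and matrix genes covered a wide range. Ndnf, a secreted neurotrophic factor, had 281, 857 and 1366 CPM in the bins and 875 CPM in control AT1 cells, with a ratio of 1.56 (1.49 to 1.64) in Ager-high cells. Fjx1, the mouse relative of a Golgi kinase named four-jointed in Drosophila, had the smallest ratio in Ager-high cells. It had 59, 15 and 19 UMIs in the bins (2.36, 3.93 and 8.18 CPM) and 731 UMIs (191 CPM) in control AT1 cells, 23.4-fold lower in Ager-high cells (14.8 to 39.0). Bdnf, the brain-derived neurotrophic factor, had 0.56, 4.97 and 23.7 CPM in the bins and 138 CPM in control AT1 cells. Lgi3, a secreted leucine-rich repeat protein, had 1.08, 10.5 and 37.0 CPM and 219 CPM in control AT1 cells. Spock2, a matrix proteoglycan, had 33.7, 191 and 314 CPM in the bins and 652 CPM in control AT1 cells. Hs2st1, which sulfates heparan sulfate, had 43.5, 170 and 306 CPM in the bins and 429 CPM in control AT1 cells. Of these 6 genes 6 were at least 2-fold lower in Ager-low, 5 in Ager-intermediate and 4 in Ager-high cells. Among all genes 13.7%, 9.95% and 6.87% were.

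Among the last 6 genes, of the nucleus, the cytoplasm or with no role assigned, Hopx is the homeodomain protein without DNA binding that is widely used to mark AT1 cells. It had 19.2, 84.0 and 254 CPM in the bins and 578 CPM in control AT1 cells. Prdx6, an antioxidant peroxiredoxin, had 273, 519 and 892 CPM in the bins and 2096 CPM in control AT1 cells. Rgcc, a regulator of the cell cycle, had 1.64, 37.4 and 136 CPM and 726 CPM in control AT1 cells, 442-fold lower in Ager-low cells (325 to 617). Sec14l3, a lipid-binding protein, had 1.64, 38.2 and 275 CPM and 599 CPM in control AT1 cells. Nnat, a small membrane proteolipid from an imprinted gene, had 13.9, 174 and 492 CPM in the bins and 388 CPM in control AT1 cells, a ratio of 1.27 (1.17 to 1.37) in Ager-high cells. Without the cluster that both libraries shared, the log2 ratio of Nnat was 0.04, and in the mutant-only cluster described further on it had 188 CPM. The gene 2210011C24Rik had 8.93, 65.9 and 164 CPM in the bins and 327 CPM in control AT1 cells. All 6 were at least 2-fold lower in Ager-low and in Ager-intermediate cells, and 4 of them in Ager-high cells. The shares of all genes in the bins were 13.7%, 9.95% and 6.87%.

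**Figure D2:**
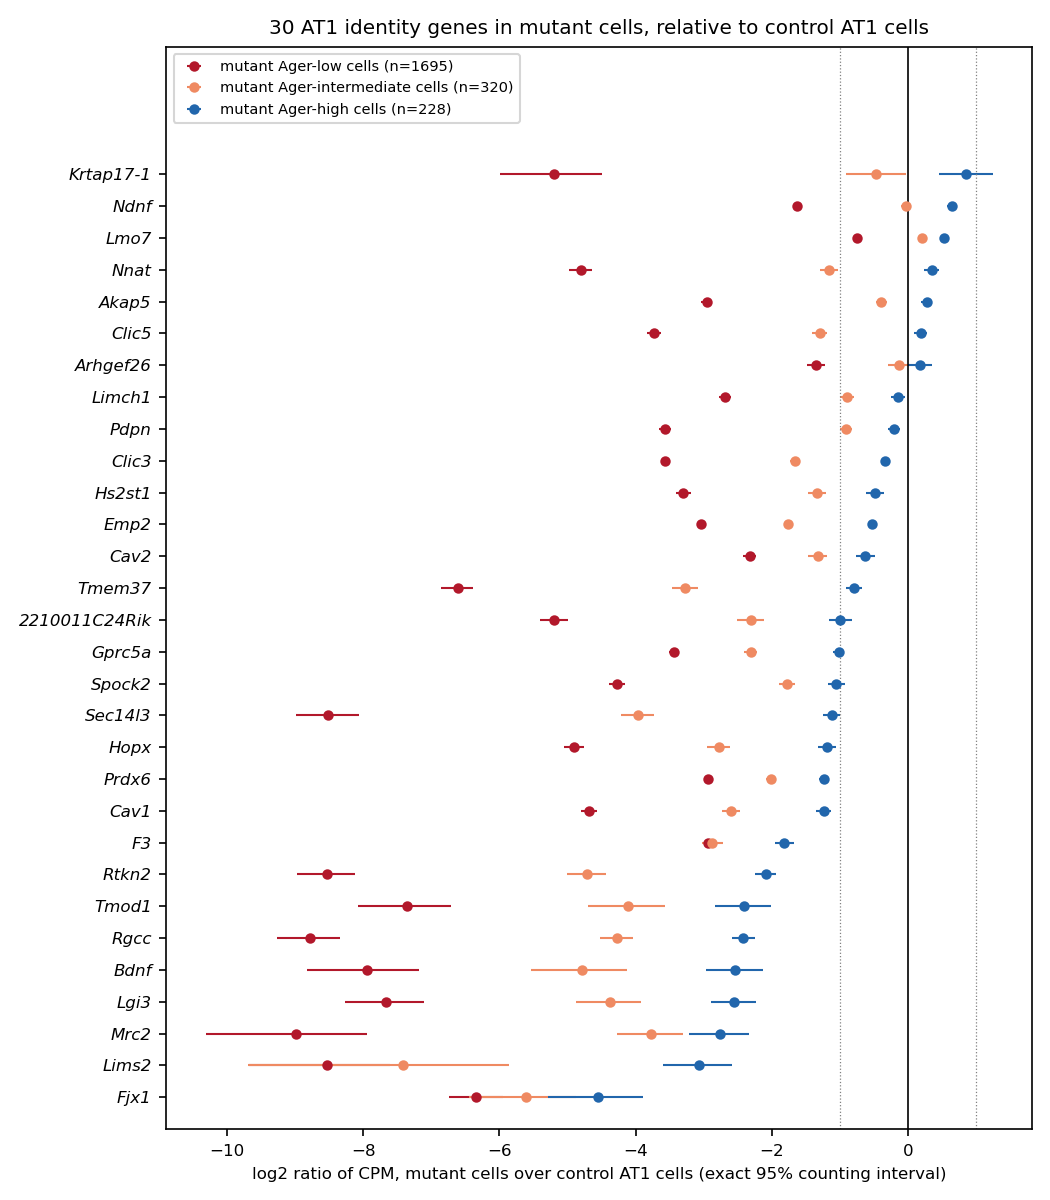
Log2 ratio of CPM in mutant Ager-low, Ager-intermediate and Ager-high cells over control AT1 cells for the 30 genes without Ager (rows, by ratio in Ager-high cells), with exact 95% counting intervals, and dotted lines at a 2-fold difference. Every gene is lowest in Ager-low cells, and the Ager-high ratios run from -4.55 for Fjx1 to 0.85 for Krtap17-1.

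Within the mutant library alone, all 30 genes were at least 2-fold lower in Ager-low than in Ager-high cells, against 9.24% of all genes, with a median log2 ratio of -3.41. In Ager-intermediate over Ager-high cells 20 of 30 were, against 3.02% of all genes, with a median of -1.30. Over the 2243 single mutant cells, Spearman's rho with the Ager share ran from 0.07 for Fjx1 and 0.10 for F3 to 0.67 for Akap5 and 0.68 for Pdpn. After thinning to 1500 UMIs it was 0.06, 0.10, 0.52 and 0.46 for these genes in the same order. In the 563 control AT1 cells it was highest for Gprc5a (0.56), Emp2 (0.45), Tmem37 (0.43) and F3 (0.37), and below 0 for Hopx (-0.14), Nnat (-0.11) and Lmo7 (-0.03). After thinning the first 4 had 0.34, 0.32, 0.24 and 0.28, and Hopx had -0.08, Nnat -0.01 and Lmo7 -0.01, while Akap5 (-0.02), Krtap17-1 (-0.06) and Tmod1 (-0.01) also came to lie below 0. Cells of a library share its preparation, and deeper cells show more genes, so these are descriptions only.

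Single cells showed the same order when each was thinned to 1500 UMIs. A median of 3 of the 30 genes was seen in Ager-low cells, 7 in Ager-intermediate, 11 in Ager-high and 15 in control AT1 cells. No gene of the 30 was seen in 6.08% of Ager-low and 0.312% of Ager-intermediate cells. Lmo7 was seen in 52.1%, 77.2% and 83.3% of thinned cells of the bins and in 74.2% of control AT1 cells, and Ndnf in 30.3%, 65.6% and 80.3% of them and in 60.4% of control AT1 cells. Rtkn2 was seen in 0.236%, 5.94% and 21.9% of thinned cells of the bins and in 63.4% of control AT1 cells. In immune cells, used here as background, Lmo7 was seen in 2.19% of mutant and 1.18% of control cells. Whether immune cells express any of these genes themselves was not tested. Rtkn2 was seen there in 0 of 183 mutant cells, with an exact upper bound of 2.00%, and in 0.888% of control cells, so its share in Ager-low cells was not above that background. Without thinning, Ager was seen in 33.0% of Ager-low cells, and after thinning in 9.44%, against 3.83% of mutant and 14.5% of control immune cells.

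**Figure D3:**
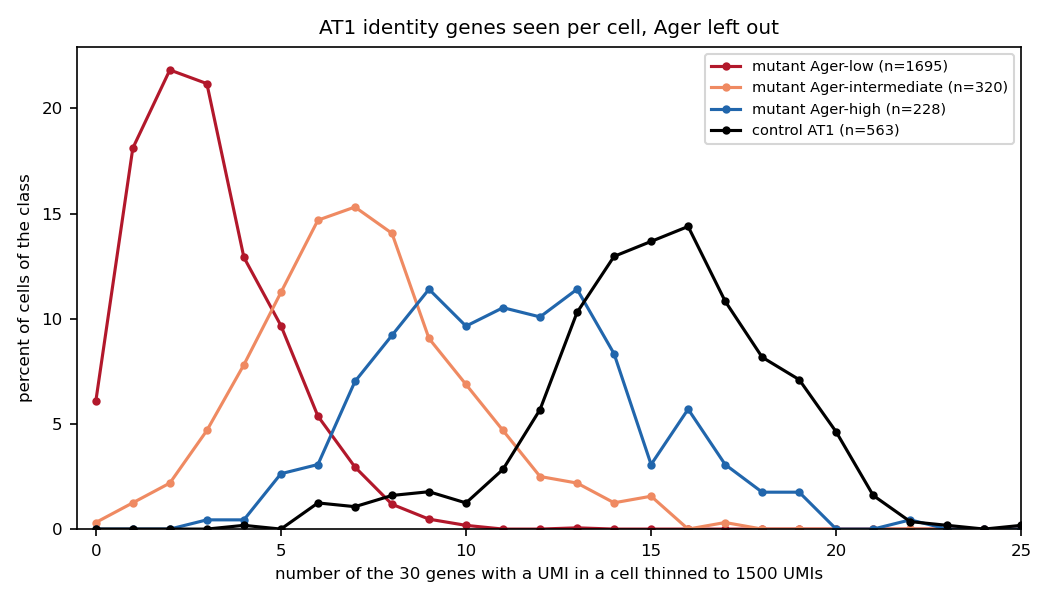
Percent of cells (vertical axis) by the number of the 30 genes without Ager that had at least 1 UMI after thinning to 1500 UMIs (horizontal axis), for 3 mutant bins and control AT1 cells. The curves peak further right from Ager-low (median 3) to control AT1 cells (median 15), and those of neighbouring classes overlap.

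Other cell types' markers differed between the bins too. The 12 AT2 markers, which include the surfactant genes, summed to 869 CPM in Ager-low, 7005 in Ager-intermediate, 8323 in Ager-high and 13531 in control AT1 cells, against 336 CPM in mutant and 3054 CPM in control endothelial cells, and none was at 0 in the 4 alveolar classes. Cell cycle genes summed to 4433, 5115 and 1727 CPM in the bins and 1362 CPM in control AT1 cells. Endothelial markers summed to at most 286 CPM and mesenchymal markers to at most 46.5 CPM in these classes. Ciliated cell markers summed to 257, 506 and 626 CPM in the bins and 1639 CPM in control AT1 cells, with Ccdc153 and Tmem212 at 0 in Ager-high cells. Club cell markers summed to 487, 84.0 and 68.9 CPM in the bins and 414 CPM in control AT1 cells, with Scgb3a1 at 0 in Ager-intermediate, Ager-high and control AT1 cells. Immune markers summed to at most 46.3 CPM, with Ptprc, Coro1a and Cd3e at 0 in Ager-high cells. The part of depth, cell cycle and other cell types' transcripts in the differences between bins was not tested, beyond the alternatives given at the end.

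The Ager-high cells were not uniform, since 109 of 228 lay in epithelial cluster 9, which also held 53 control AT1 cells, and 110 lay in epithelial cluster 4, which held mutant cells and no control cell. Cluster 4 took no cell type name because none of the 10 AT1 markers outside the set was among its top 10 genes. AT1 was still its best match, with a mean log2 fold of 3.35 and all 10 markers seen in at least 10% of cells. With doublets kept, a cluster of 382 mutant cells and no control cell was named AT1-like. The leading genes of cluster 4 were Krt8, Krt18 and Wfdc2. The clusters were made without the 31 genes, and the comparison by cluster was chosen after the values had been seen. Of the control AT1 cells 510 lay in cluster 2. Nkx2-1 had 12.5 CPM in the 384 mutant cells of cluster 4 and 185 CPM in the 170 mutant cells of cluster 9, against 529 CPM in control cells of cluster 9 and 486 CPM in control cells of cluster 2. The AT2 markers summed to 1047 CPM in cluster 4 and to 27959 CPM in mutant cells of cluster 9, against 87986 CPM in control cells of cluster 9 and 4634 CPM in cluster 2. Whether single cells or mixtures carry these AT2 transcripts in cluster 9 was not tested.

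In the mutant cells of cluster 4 the genes of the set ran from levels above those of control AT1 cells to levels over 100-fold below them, with many in between. At least 2-fold below control AT1 cells were 24 of 30 genes, against 8.71% of all genes, with a median log2 ratio of -2.17, and the 6 others lay within 2-fold. Of the 24, 14 were less than 10-fold lower, such as Emp2 (1301 CPM in cluster 4 and 3768 CPM in control AT1 cells) and Clic3 (670 and 2041 CPM), and 10 were at least 10-fold lower. The 6 within 2-fold were Lmo7 (1331 CPM in cluster 4 and 959 CPM in control AT1 cells, ratio 1.39, 1.33 to 1.45), Ndnf (1095 and 875 CPM, 1.25, 1.20 to 1.31), Arhgef26 (199 and 172 CPM, 1.16, 1.05 to 1.29), Akap5 (760 and 787 CPM, 0.966, 0.920 to 1.02), Limch1 (405 and 609 CPM) and Pdpn (513 and 797 CPM). At the other end, Krtap17-1 had 1 UMI in cluster 4 and 107 UMIs in control AT1 cells, a ratio of 0.00782 (0.000196 to 0.0445). Lgi3 had 1.75 CPM in cluster 4 and 219 CPM in control AT1 cells, 125-fold lower (63.1 to 290.3). Rgcc had 7.66 and 726 CPM, 94.8-fold lower (68.0 to 136), and Rtkn2 had 9.41 and 708 CPM, 75.3-fold lower (55.8 to 104). Lims2 had 7 UMIs in cluster 4 against 512 UMIs in control AT1 cells. Hopx, with 63.6 CPM in cluster 4 and 578 CPM in control AT1 cells, was 9.07-fold lower (8.03 to 10.3).

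In cluster 9, mutant cells differed less from control cells of the same cluster than cluster 4 did from control AT1 cells. That reference was itself low for the set. Without Ager the set summed to 14206 CPM in control cells of cluster 9, against 23001 CPM in control cells of cluster 2. Mutant cells of cluster 9 had 16184 CPM. Cells of a cluster are grouped by likeness, so the comparison does not show that control AT1 levels were kept. Of 29 genes with enough UMIs, 2 were at least 2-fold lower in mutant cells, against 2.96% of all genes, and 4 were at least 2-fold higher, against 15.3% of all genes. Their median log2 ratio was 0.04, beside 0.27 for all genes. Hopx had 393 CPM in mutant and 382 CPM in control cells of cluster 9, Pdpn 492 and 431 CPM, and Rgcc 262 and 277 CPM. All control AT1 cells together had more, with 578 CPM of Hopx, 797 CPM of Pdpn and 726 CPM of Rgcc. Lower by 2-fold or more were Lgi3 (74.8 CPM in mutant and 345 CPM in control cells) and Tmod1 (39.0 and 127 CPM). Higher by 2-fold or more were Ndnf (1131 and 370 CPM), Limch1 (521 and 257 CPM), Krtap17-1 (122 and 29.4 CPM) and Bdnf, the last on 35 mutant and 2 control UMIs (ratio 4.65, 1.19 to 39.9). Krtap17-1 in Ager-high cells thus rested on cluster 9, and its log2 ratio to control AT1 cells was -3.17 with that cluster left out.

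Clusters 1, 3, 6 and 7 held most Ager-low cells, took no cell type name and had still lower levels. Leading genes were Clu, Tff2 and Sprr1a in cluster 1, and Sprr1a, Clu and Msln in cluster 3. They were Sprr1a, Wfdc2 and Krt18 in cluster 6, and Sprr1a, Clu and Wfdc2 in cluster 7. The 30 genes summed to 1759 CPM in the 627 mutant cells of cluster 1, 3461 CPM in the 467 of cluster 3, 2651 CPM in the 301 of cluster 6 and 2704 CPM in the 289 of cluster 7, against 8771 CPM in cluster 4. Cluster 3 had more Lmo7 (842 CPM), Ndnf (490 CPM) and Spock2 (43.8 CPM) than cluster 1 (402, 117 and 2.86 CPM). Rtkn2, Rgcc, Sec14l3 and Lgi3 had at most 6.27 CPM in each of these 4 clusters. Cell cycle genes summed to 14030 CPM in cluster 7 and to 1658 CPM in cluster 3, whose part in these levels was not tested.

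**Figure D4:**
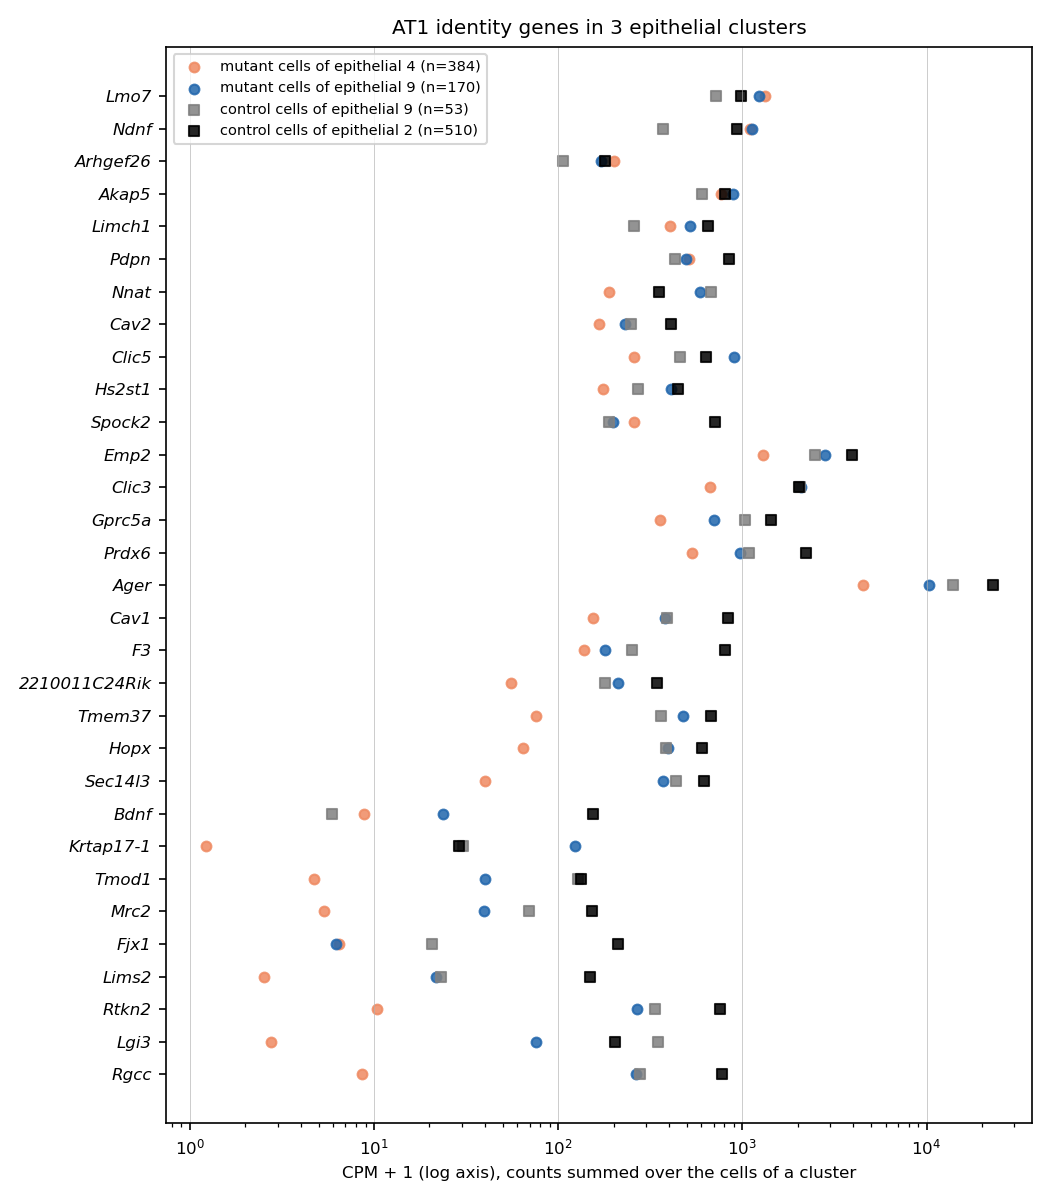
Level (CPM + 1, log axis) of the 31 genes in mutant cells of epithelial clusters 4 and 9 and in control cells of clusters 9 and 2, with rows ordered by the ratio of cluster 4 to cluster 2. Points of cluster 4 lie near those of control cells for Lmo7, Ndnf, Arhgef26 and Akap5 and far to the left for Rgcc, Lgi3, Rtkn2 and Lims2, whereas mutant points of cluster 9 lie closer to the control ones.

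Promoter sequences of 4 genes are shown as examples, Akap5 and Pdpn, which were within 2-fold of control AT1 cells in cluster 4, and Hopx and Rgcc, which were not. They are 300-base windows of RefSeq (GRCm38.p6), from 250 bases before to 50 bases after an annotated start, and 22 of the 31 genes had such windows, 33 in all. Capitals mark the letters CACTNNAG or the reverse complement CTNNAGTG, a short form of the motif bound by NK2 homeodomain proteins such as Nkx2-1. Akap5 (chr12:76324641-76324940, plus strand) and Pdpn (chr4:143299515-143299814, minus strand) each hold 1 match before the start, at -227 and -125. Hopx (chr5:77095218-77095517, minus strand) holds 1 match, 34 bases after the annotated start, in one of its 2 windows and none in the other, and Rgcc (chr14:79301586-79301885, minus strand) holds none.
Akap5: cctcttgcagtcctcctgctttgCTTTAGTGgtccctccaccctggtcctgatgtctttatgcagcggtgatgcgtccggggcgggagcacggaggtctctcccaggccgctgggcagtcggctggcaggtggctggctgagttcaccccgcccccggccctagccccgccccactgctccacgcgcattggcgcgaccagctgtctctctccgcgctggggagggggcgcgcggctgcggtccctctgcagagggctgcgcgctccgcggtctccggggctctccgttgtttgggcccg
Pdpn: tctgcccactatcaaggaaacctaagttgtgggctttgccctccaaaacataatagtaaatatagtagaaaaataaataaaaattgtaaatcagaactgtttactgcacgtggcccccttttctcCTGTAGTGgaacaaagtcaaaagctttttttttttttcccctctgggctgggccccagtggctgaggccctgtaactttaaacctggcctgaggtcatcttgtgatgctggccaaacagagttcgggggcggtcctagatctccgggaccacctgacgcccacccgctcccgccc
Hopx: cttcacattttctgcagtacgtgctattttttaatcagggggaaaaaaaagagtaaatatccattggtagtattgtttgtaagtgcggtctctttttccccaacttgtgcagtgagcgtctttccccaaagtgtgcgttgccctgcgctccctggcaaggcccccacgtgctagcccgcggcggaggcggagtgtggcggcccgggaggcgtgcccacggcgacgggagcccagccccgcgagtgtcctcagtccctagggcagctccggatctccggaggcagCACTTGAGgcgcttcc
Rgcc: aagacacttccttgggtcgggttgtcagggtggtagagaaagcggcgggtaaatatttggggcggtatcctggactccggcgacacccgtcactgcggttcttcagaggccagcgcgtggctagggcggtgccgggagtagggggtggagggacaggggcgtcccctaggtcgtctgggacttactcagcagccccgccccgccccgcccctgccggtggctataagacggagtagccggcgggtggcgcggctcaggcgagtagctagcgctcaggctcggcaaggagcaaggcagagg
On either strand, 8 of 33 windows of the set (24.2%) held the motif, in Akap5, Bdnf, Clic3, Hopx, Nnat and Pdpn, against 16.0% of all 32851 windows. The windows of Lmo7, Limch1 and Arhgef26, also within 2-fold in cluster 4, held no match, and Bdnf, Clic3 and Nnat, which held one or more, were at least 2-fold lower there. The letters GGAATG or CATTCC, a short form of the TEAD motif, were in 4 of 33 windows (12.1%), in Arhgef26, Bdnf and Tmod1, against 14.7% of all windows. Neither motif overlaps the other, several Bdnf windows share 1 gene, and a match is a string of letters only.

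Several genes of the set were not restricted to AT1 cells. In the control library 5 of 31 had a higher level in some of the 6 other classes than in AT1 cells. At least 10-fold higher in AT1 cells than in any of the 6 were 9 of 31. Sub-classes within the 6 were not counted. In some of them Limch1, Fjx1 and Bdnf were also above their AT1 level in the control, as given below. Those 9 were Ager, Pdpn, Rtkn2, Akap5, Spock2, F3, Ndnf, Tmem37 and 2210011C24Rik. Sec14l3 had 2059 CPM in mutant and 1515 CPM in control ciliated-like cells, above the 599 CPM of control AT1 cells. Prdx6 had 1226 CPM in mutant and 2027 CPM in control club-like cells, close to the 2096 CPM of control AT1 cells. Krtap17-1 had 22.5 CPM in mutant and 105 CPM in control club-like cells. Lgi3 had 232 CPM in mutant and 368 CPM in control AT2-like cells, so a gene nearly absent from mutant alveolar cells of cluster 4 was present in the mutant library's AT2-like cells. Clic3 had 463 CPM in mutant and 696 CPM in control ciliated-like cells.

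Endothelial and mesenchymal cells expressed another part of the set. Cav1 had 1273 CPM in mutant and 1122 CPM in control endothelial cells, and Cav2 had 353 and 423 CPM, both above or near their AT1 levels. Rgcc had 640 CPM in mutant and 399 CPM in control endothelial cells, and in Plvap-high capillary-like cells 746 and 496 CPM. Emp2 had 1597 CPM in mutant and 2199 CPM in control Car4-high capillary-like cells, a capillary type that lies against AT1 cells, but 175 and 205 CPM in Plvap-high capillary-like cells. Limch1 had 2658 CPM in mutant and 2065 CPM in control alveolar fibroblast-like cells. Fjx1 had 138 CPM in mutant and 262 CPM in control pericyte-like cells, and Bdnf had 96.2 and 146 CPM in Acta2-high mesenchymal cells. Gprc5a was highest outside AT1 cells in AT2-like cells of the mutant (82.0 CPM) and club-like cells of the control (231 CPM), and Lmo7 in ciliated-like cells (491 CPM in the mutant and 378 CPM in the control).

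In these other classes the genes differed between the libraries in both directions, and the median ratios lay nearer to 0 than those of the mutant bins. The median log2 ratio of mutant over control was 0.21 in AT2-like cells (27 of 30 genes with at least 20 UMIs), beside 0.19 for all genes. It was -0.27 in endothelial cells (20 genes), beside 0.08 for all genes, and -0.31 in mesenchymal cells (28 genes), beside 0.04 for all genes. In immune cells it was 0.03 over 16 genes, beside 0.10 for all genes. In AT2-like cells 4 of 27 genes were at least 2-fold lower, against 4.81% of all genes, and 3 were at least 2-fold higher, against 7.35% of all genes. In endothelial cells 3 of 20 were at least 2-fold lower, against 2.19% of all genes, and 0 were higher, against 7.09%. The lower ones were Gprc5a, Spock2 and Nnat, with at most 15.7 CPM in control endothelial cells. In mesenchymal cells 7 of 28 were at least 2-fold lower, against 2.37%, and 4 were higher, against 6.72%. The lower ones were Clic3, Gprc5a, Rtkn2, Spock2, Tmem37, Lgi3 and Sec14l3, with at most 13.6 CPM in control mesenchymal cells. All but Lgi3 and Sec14l3 were lower there than in control immune cells, used here as background. The part of free RNA in these counts was not tested. Club-like and ciliated-like cells, with 23 and 44 mutant cells, left 12 and 15 genes, with medians of -0.60 and 0.18. Ager had 1270 CPM in mutant and 2015 CPM in control AT2-like cells, and 18.4 and 143 CPM in endothelial cells, which should lack it.

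Other AT1 genes, a list of 36 outside the set, followed the same order at smaller differences. Their median log2 ratio to control AT1 cells was -3.49 in Ager-low, -1.75 in Ager-intermediate and -0.59 in Ager-high cells. At least 2-fold lower were 30, 26 and 10 of 36, against 13.7%, 9.95% and 6.87% of all genes. At least 2-fold higher were 2, 1 and 3, against 22.9%, 17.2% and 7.87% of all genes. The list includes the 10 markers that named the AT1-like clusters. Cldn18, a tight junction claudin, had 463, 954 and 2080 CPM in the bins and 3297 CPM in control AT1 cells. Igfbp2, a binding protein of insulin-like growth factors, had 70.6, 625 and 1078 CPM in the bins and 3249 CPM in control AT1 cells. Wnt3a, a Wnt ligand, had 0 UMIs in Ager-low cells and 86.3 CPM in control AT1 cells, and Scnn1g, a subunit of the epithelial sodium channel, had 1.08 and 399 CPM. Krt19, a keratin of simple epithelia, was higher in every bin, with 2144, 1339 and 1774 CPM against 677 CPM in control AT1 cells. Ank3, an ankyrin that links membrane proteins to spectrin, had 70.7, 76.4 and 74.9 CPM in the bins and 28.5 CPM in control AT1 cells. The calcium-binding S100a6, the most abundant of the list, had 11376, 11519 and 12113 CPM in the bins and 9273 CPM in control AT1 cells.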

How the data were processed

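Raw UMI counts per gene and barcode of 1 mutant and 1 control library, grouped by genotype label, are used as deposited by the authors. Per the submitters' processing notes, the tools were Cell Ranger and Seurat with the mm10 build. Neither versions nor filters were stated, and no barcode was below 3874 UMIs (mutant) or 2278 UMIs (control).

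Cells had at least 500 genes and under 10% mitochondrial counts. Doublets were scored against simulated doublets (2 per cell), and an expected rate of 0.8% per 1000 cells marked 154 mutant and 133 control cells. Variable genes (2000, without the 31 genes and those of the cell cycle, mitochondria, ribosomes and sex chromosomes) gave 30 principal components, 20 neighbours and Leiden clusters (leidenalg 0.10.2, resolution 1), both libraries together, and again within each lineage. A cluster was called "X-like" when its markers had a mean log2 fold of at least 1.5, at least 3 were seen in at least 10% of cells, and at least 1 and no fewer than of any rival type were among its top 10 genes. Names were rebuilt here, with no annotation by the authors.

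CPM came from summed counts, with exact Poisson intervals. Ratios needed at least 20 UMIs over both classes and have exact conditional binomial intervals (scipy 1.17.1). The code was tested on simulated counts. The genes, lists and bins were chosen with earlier results of these data known. By rule the text names all 31 genes, and outside them Nkx2-1 and the 3 highest and 2 smallest and 2 largest ratios of the 36-gene list. Leading genes of clusters and some cell type markers are named as well. Alternatives covered doublets, averaging over cells, which cells were binned, both boundaries, scaling, free RNA, depth, cell cycle, clustering genes, count minimum and 1 cluster left out. No replicate could be left out.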

Additional observations from a re-analysis of the deposited data

How the results depend on the processing

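Of 86 values of the medians and counts of genes at least 2-fold lower under the alternatives, 84 stayed near the reported ones, 2 moved and 0 changed sign. In Ager-low cells the median log2 ratio was -3.17 instead of -4.48 among non-cycling cells (23 mutant and 83 control cells), and in Ager-high cells it was -1.75 instead of -1.01 without the AT1-like cluster shared by both libraries (119 mutant and 510 control cells), an alternative chosen after seeing the data. The cause was not tested. Over all alternatives the median ran from -4.96 to -3.17 in Ager-low, from -2.56 to -1.86 in Ager-intermediate and from -1.75 to -0.76 in Ager-high cells. Cells called non-cycling had at most 3 UMIs of cell cycle genes, a cut that deeper cells pass less often. It therefore does not separate the cell cycle from depth, and cells above it are not shown to be cycling. Non-cycling cells gave no value in the 2 upper bins, each with 5 mutant cells. Median-of-ratios scaling moved the median of all genes to 0.05 instead of 0.18 in Ager-low and to 0.01 instead of 0.12 in Ager-intermediate cells, and the set's median to -4.61 and -2.27. Of 508 values of selected single genes 302 stayed, 206 moved by more than their counting interval and 0 changed sign from a difference of at least 2-fold. Of 444 ratios among them 436 kept their direction. These ratios covered, in each bin, only the genes highest in control AT1 cells and those with the smallest and largest ratios. Outside that selection, Krtap17-1 in Ager-low cells went from a log2 ratio of -5.20 to 0.78 among non-cycling cells. In Ager-high cells Akap5, Lmo7, Ndnf and Nnat stayed above control AT1 cells under all 12 alternatives, but Nnat hardly did so without the shared cluster (log2 0.04). Clic5, Krtap17-1, Arhgef26 and Limch1 changed direction under some. Without the shared cluster Clic5 had a log2 ratio of -0.51 and Rtkn2 of -4.29. Without replicates, differences between animals cannot be judged, and genes with few UMIs have wide intervals. No paired analysis was possible because each group has 1 library.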
